A study of Rattus norvegicus with 24 samples.

Results

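The genes described here are a panel of 37 genes of cell division, of which 14 act in DNA replication and 23 in mitosis. The members are listed by symbol, with no threshold on a measured value, and the list was drawn up with earlier results of these data known. Of the 37 listed genes, 36 had a row in the table of 17711 rows, namely all 14 replication genes and 22 mitosis genes, and Cenpe was not analysed here. Expression was measured by mRNA sequencing as FPKM, a count of sequenced fragments corrected for transcript length and library size. The 24 libraries were made from striatum and from whisker follicles of male Sprague-Dawley rats, with 6 libraries in each of 4 groups. The rats self-administered methamphetamine (MA) or saline (SA), and both tissues came from the same rats, 6 per treatment. All rats had first learned to press a lever for food pellets. A press then gave an intravenous infusion of 0.05 mg/kg of MA or of SA alone, in daily sessions of 2 h for 16 days, and the SA rats went through the same sessions as the controls.

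A dividing cell copies its DNA in S phase and separates the copies in mitosis. Helicases, clamps and enzymes that supply nucleotides do the first task, and cyclin B with its kinase, the spindle motors and the checkpoint proteins do the second. Replication genes are known to be transcribed through E2F sites from late G1 onwards. Mitosis genes are known to be transcribed later, through CHR elements and CCAAT boxes in short promoters. In the follicle, the matrix cells of the hair bulb divide rapidly while a hair grows and then stop as they become hair shaft. Most striatal cells are neurons that no longer divide, and the dividing cells of the adult striatum are mainly glial precursors.

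The promoter sequences of both kinds of gene are shown first, because the replication and the mitosis members are compared apart from each other below. RefSeq promoters of the GRCr8 rat assembly, each running from 250 bases before to 50 bases after the transcription start, were given for 30 of the 37 listed genes, 11 of replication and 19 of mitosis. They were searched on both strands for the CHR core TTTGAA or TTCGAA, for the letters CCAAT, and for 4 E2F forms, which are TTTGGCGC or TTTCGCGC or TTTCCCGC or TTTGCCGC. The forms can overlap each other on opposite strands, and each match was counted. Mitosis promoters are represented by Ccnb1 (cyclin B1) at chr2:33655176-33655475 on the minus strand, Ccnb2 (cyclin B2) at chr8:79981609-79981908 on the minus strand, Cdc20 (the activator of the anaphase-promoting complex) at chr5:137255750-137256049 on the minus strand and Plk1 (polo-like kinase) at chr1:186147408-186147707 on the plus strand. Each is printed from 5′ to 3′ in the direction of transcription, with the matched letters in capitals on either strand.
Ccnb1: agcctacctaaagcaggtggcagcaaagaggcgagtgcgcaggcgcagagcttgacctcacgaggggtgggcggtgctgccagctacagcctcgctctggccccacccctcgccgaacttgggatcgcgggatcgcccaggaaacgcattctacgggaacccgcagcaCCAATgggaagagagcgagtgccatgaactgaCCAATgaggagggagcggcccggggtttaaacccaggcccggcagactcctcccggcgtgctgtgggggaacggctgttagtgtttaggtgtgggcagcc
Ccnb2: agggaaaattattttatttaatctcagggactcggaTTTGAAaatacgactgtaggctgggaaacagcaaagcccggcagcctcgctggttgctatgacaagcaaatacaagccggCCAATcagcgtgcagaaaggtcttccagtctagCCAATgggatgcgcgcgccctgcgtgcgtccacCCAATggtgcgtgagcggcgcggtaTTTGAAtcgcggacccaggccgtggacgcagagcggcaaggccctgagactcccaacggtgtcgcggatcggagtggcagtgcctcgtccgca
Cdc20: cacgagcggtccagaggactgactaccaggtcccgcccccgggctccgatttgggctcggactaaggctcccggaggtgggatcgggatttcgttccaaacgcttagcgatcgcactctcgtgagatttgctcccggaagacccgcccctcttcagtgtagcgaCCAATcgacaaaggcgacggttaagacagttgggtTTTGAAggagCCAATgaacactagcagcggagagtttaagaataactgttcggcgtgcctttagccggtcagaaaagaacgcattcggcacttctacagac
Plk1: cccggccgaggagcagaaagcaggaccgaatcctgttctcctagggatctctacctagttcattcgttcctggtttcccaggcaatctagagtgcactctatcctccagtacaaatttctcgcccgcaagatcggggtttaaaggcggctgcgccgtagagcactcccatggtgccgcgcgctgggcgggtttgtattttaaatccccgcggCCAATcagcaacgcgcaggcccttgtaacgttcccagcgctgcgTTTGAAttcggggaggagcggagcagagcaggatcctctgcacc

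In Ccnb2, the CHR core nearest the start began 43 bases upstream of it and followed 3 CCAAT boxes that began 134, 101 and 68 bases upstream. In Cdc20 the CHR core began 51 bases upstream, between CCAAT boxes that began 86 and 41 bases upstream. Plk1 had 1 CCAAT box 38 bases upstream, with its CHR core just inside the transcript. Ccnb1 had 2 CCAAT boxes and neither TTTGAA nor TTCGAA in this window, and other forms of the CHR were not searched for. Replication promoters are represented by Mcm2 at chr4:122918045-122918344 on the minus strand and Mcm5 at chr19:13488563-13488862 on the plus strand, both subunits of the replicative helicase, and by Pcna, the sliding clamp of the DNA polymerases, at chr3:139955771-139956070 on the minus strand.
Mcm2: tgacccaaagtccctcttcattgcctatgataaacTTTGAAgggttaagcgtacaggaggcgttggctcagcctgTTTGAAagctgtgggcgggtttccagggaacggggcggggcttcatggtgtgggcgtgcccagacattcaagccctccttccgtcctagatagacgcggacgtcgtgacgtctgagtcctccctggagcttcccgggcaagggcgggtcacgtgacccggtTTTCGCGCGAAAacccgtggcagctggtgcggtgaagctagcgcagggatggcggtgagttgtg
Mcm5: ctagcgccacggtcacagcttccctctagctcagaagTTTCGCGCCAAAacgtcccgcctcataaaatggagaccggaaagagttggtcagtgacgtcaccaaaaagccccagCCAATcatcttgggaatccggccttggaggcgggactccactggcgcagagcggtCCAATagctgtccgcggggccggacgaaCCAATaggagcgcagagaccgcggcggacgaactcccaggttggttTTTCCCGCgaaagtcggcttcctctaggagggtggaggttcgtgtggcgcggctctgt
Pcna: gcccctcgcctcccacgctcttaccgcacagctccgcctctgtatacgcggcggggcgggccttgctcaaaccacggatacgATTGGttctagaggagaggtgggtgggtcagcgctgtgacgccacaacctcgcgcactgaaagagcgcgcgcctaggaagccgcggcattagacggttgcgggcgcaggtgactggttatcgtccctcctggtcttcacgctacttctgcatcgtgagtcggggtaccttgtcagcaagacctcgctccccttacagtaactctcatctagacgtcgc

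Mcm2 held overlapping E2F matches that began 14 and 10 bases upstream of the start and 2 CHR cores farther upstream. Mcm5 held an overlapping pair of E2F matches beginning 213 and 209 bases upstream, another 8 bases upstream, and 3 CCAAT boxes between them. Pcna, the most abundant member, held 1 CCAAT box on the opposite strand and none of the 4 E2F forms. No promoter was given for Rrm2, Mcm4, Cdc6, Ccna2, Aurkb, Tpx2 and Ube2c, and that of Cenpe is among the mitosis promoters. Over the 30 promoters given, an E2F form was found in 8 of 11 replication promoters (72.7%) and in 1 of 19 mitosis promoters (5.26%), that of Cdk1. Among all 33469 promoters of the table the share was 2.14%. The CHR core was found in 13 of 19 mitosis promoters (68.4%) and in 3 of 11 replication promoters (27.3%), beside 19.7% of all promoters. CCAAT boxes were found in 84.2% of mitosis and 72.7% of replication promoters, beside 37.5% of all. A CHR core together with a CCAAT box occurred in 63.2% of mitosis promoters, 18.2% of replication promoters and 7.95% of all. A match is a description of the letters and not a shown binding site.

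**Figure D1:**
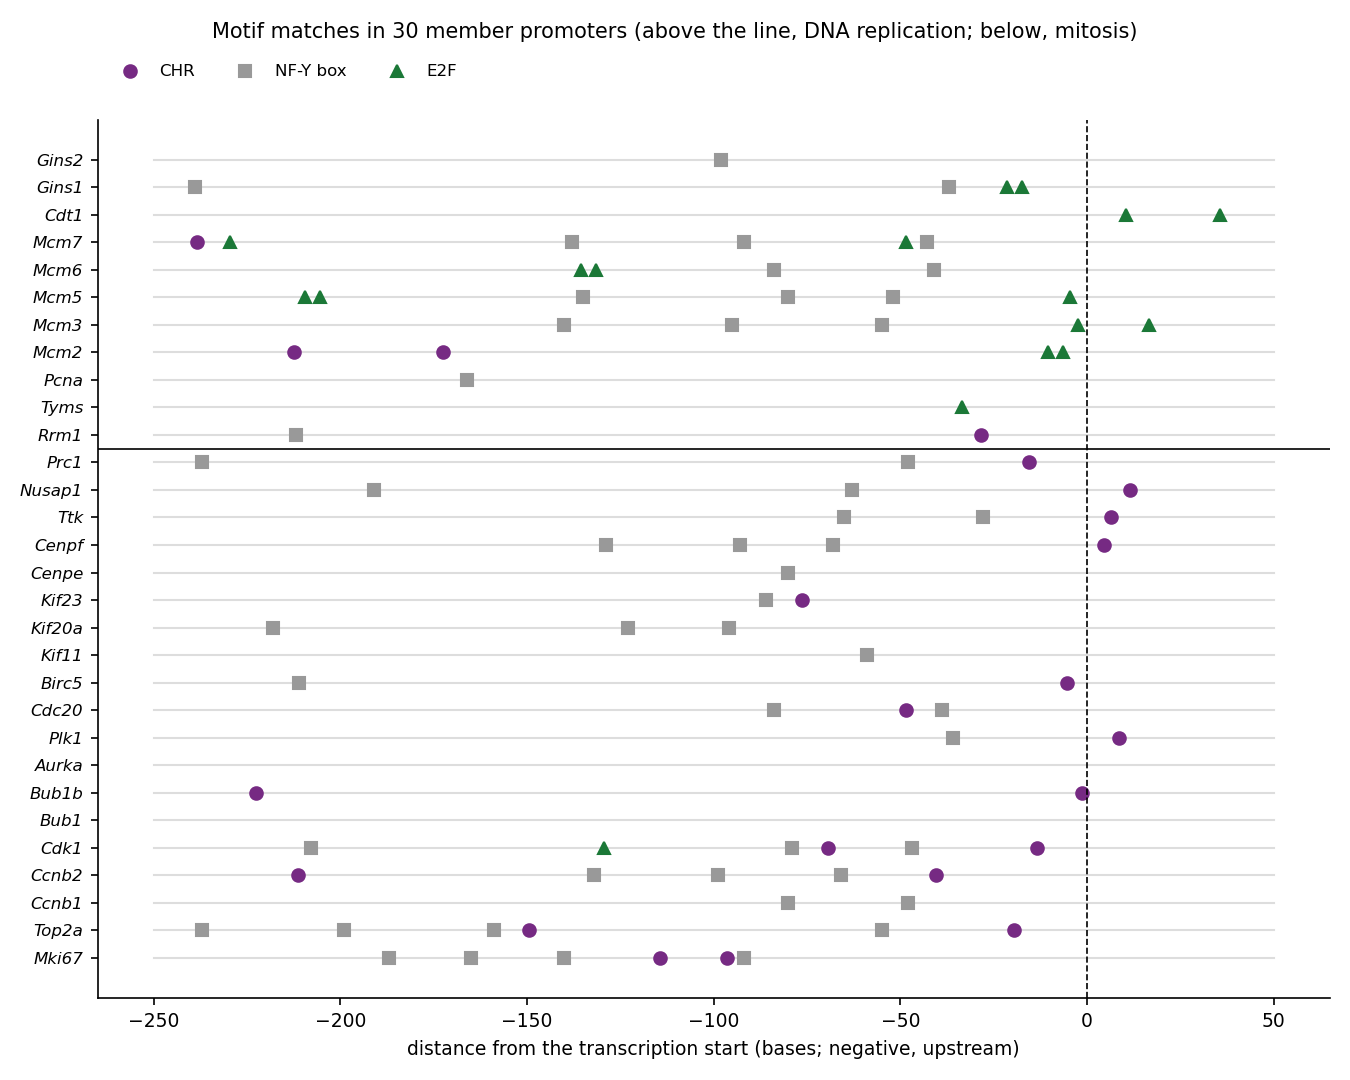
Centres of motif matches in 30 member promoters, in bases from the transcription start, with replication genes above the line and mitosis genes below it. Circles are CHR cores, grey squares are CCAAT boxes (labelled NF-Y box, after the factor that binds them) and triangles are E2F forms. E2F forms lie in 8 of 11 replication promoters and in 1 of 19 mitosis promoters, and CHR cores in 13 of 19 mitosis promoters.

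The libraries matched their tissue labels by neuronal and hair shaft markers. The summed FPKM of 8 neuronal markers ran from 1728 to 3701 in the striatum and from 2.28 to 16.6 in the follicle, and that of the 9 rows of hair shaft markers from 27014.7 to 90347.5 in the follicle against at most 37.5 in the striatum. Single libraries set the upper limits in the other tissue, follicle SA 5 for neuronal markers (16.6) and striatum SA 2 for hair shaft markers (37.5). Follicle SA 5 also had the highest follicle sum of oligodendrocyte markers, 77.0 FPKM. Astrocyte markers separated less, from 718 to 1178 in the follicle and from 1504 to 3157 in the striatum. The endothelial markers Cldn5 and Cdh5 were listed at 0 in all 12 follicle libraries. The table holds no read counts, so depth is unknown and the spread between libraries is the only error. Between 11160 and 12010 rows were above 0 in a follicle library and between 12962 and 13279 in a striatum library. The follicle library SA 0 (numbered 0 to 5 by its column) stood apart, since without it the number of differentially expressed genes (DEGs) between MA and SA rose from 0 to 1219. The follicle results for MA against SA, and the difference between the MA effects of the tissues, are therefore given with and without it. For the tissues in SA libraries, counts and the named genes whose reading changed are also given without it. In the striatum, library MA 3 stood apart in the levels of the members themselves, and counts for MA against SA in the striatum are given with and without it.

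Members were present at low levels in both tissues. The median over genes of the group mean FPKM was 2.31 for replication genes and 1.73 for mitosis genes in follicle SA libraries, against 4.54 for all rows above 0. In striatum SA libraries the medians were 1.64 and 0.78, against 6.16 for all rows above 0. In FPKM, Pcna was the highest member in every group, with means of 51.7 in follicle SA and 34.2 in striatum SA libraries. The highest mitosis gene in the follicle was Ube2c, the E2 enzyme of the anaphase-promoting complex, at a mean of 8.04 in SA libraries. The highest in the striatum was Aurka, a centrosomal kinase, at 2.16. The lowest means in SA libraries were those of Cenpf, a kinetochore protein, at 0.31 in the follicle, and of Rrm2, the small subunit of ribonucleotide reductase, at 0.0785 in the striatum. In RNA of a whole tissue, fewer dividing cells and less RNA per dividing cell cannot be told apart.

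Mki67, whose protein is the common proliferation marker, was low throughout. It ran from 0.38 over a median of 0.57 to 0.93 FPKM in follicle SA libraries, and from 0.31 over 0.47 to 0.56 in follicle MA libraries. In the striatum it ran from 0.20 over 0.25 to 0.68 in SA and from 0.10 over 0.23 to 0.45 in MA libraries. All 4 groups overlapped, and the top of both SA groups was set by single libraries, SA 0 in the follicle and SA 5 in the striatum. Top2a, the topoisomerase that untangles sister chromosomes, ran from 0.12 over 0.35 to 1.76 FPKM in follicle SA and from 0.39 over 0.77 to 1.06 in follicle MA libraries. Its striatal values ran from 0.20 over 0.39 to 1.52 in SA and from 0.0726 over 0.30 to 1.16 in MA libraries. Again all groups overlapped. Mki67, Top2a and Rrm2 averaged under 1 FPKM, which is the minimum used in the tests, so their tests below come from a fit with no such minimum.

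**Figure D2:**
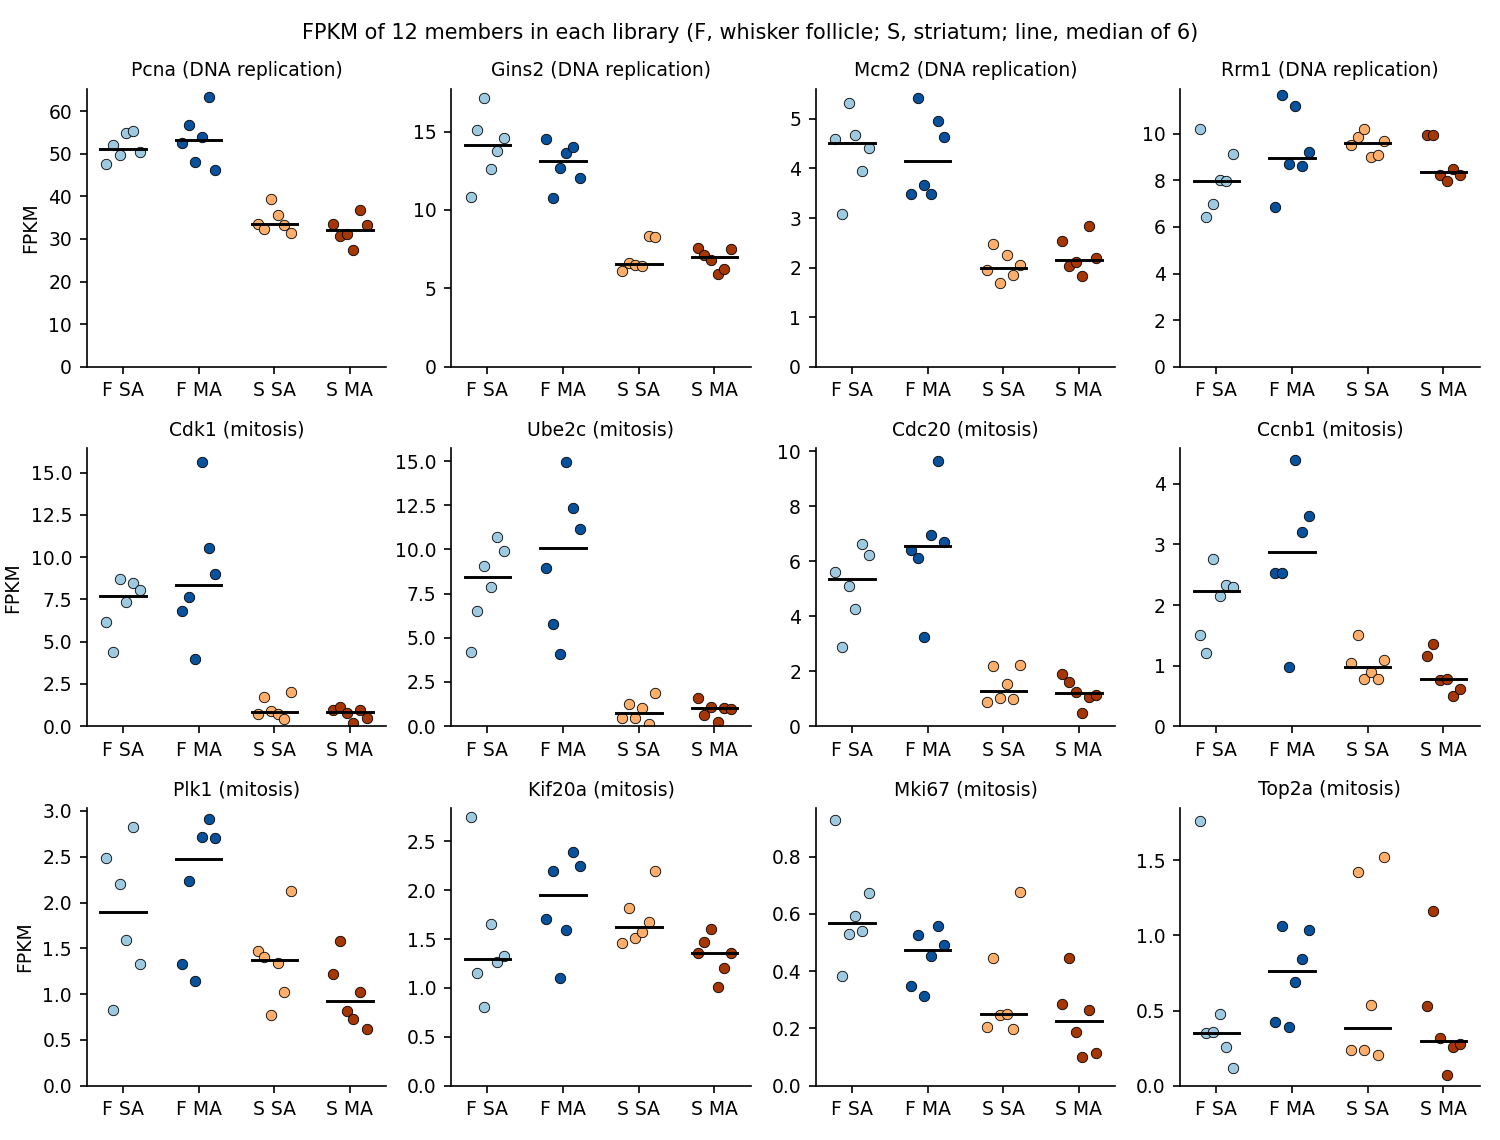
FPKM of 12 members in each of the 24 libraries, with the follicle (F) and striatum (S) groups on the horizontal axis, a point for each library in column order and a line at the median of 6. Pcna, Gins2, Mcm2, Cdk1, Ube2c and Cdc20 are higher in every follicle library than in any striatum library. The MA and SA points of a tissue overlap for all 12 genes.

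The tissues were compared first within the SA libraries. A gene was called when its adjusted p in limma was under 0.05 and its fold was at least 1.5 on the log2(FPKM + 1) scale. The median gene was lower in the follicle by this scale (log2 difference -0.24 over 10952 rows), and 74.5% of rows were called, 32.0% as higher in the follicle. Without a minimum level, so that all 36 members could be tested, 4 of 14 replication and 6 of 22 mitosis genes were called, all higher in the follicle, beside 25.5% of all rows called higher and 61.7% called in either direction. In this fit the count of members called higher was thus near the share of all rows, and no member was called lower. Counts depended on the normalization, and those under other normalizations are given in the closing sections. With the minimum, the same 10 members were among 24 tested, and 4 of those 10 (Gins1, Ccnb2, Nusap1 and Ube2c) averaged under 1 FPKM in the striatum and so passed the minimum through the follicle. Of these 24, 5 replication and 8 mitosis genes were called higher and 1 replication gene lower with a pseudocount of 0.1 or 0.5 and with weighted libraries. With follicle library SA 0 left out, 5 of 11 replication and 7 of 13 mitosis genes were called, all higher. That fit called 8390 of 10953 rows in either direction. The shares of all rows called higher in these other fits are not given here, so these counts are a description.

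Among replication genes, Pcna ran from 47.7 over 51.2 to 55.4 FPKM in follicle SA and from 31.3 over 33.4 to 39.3 in striatum SA libraries. The groups did not overlap, but the log2 fold change of 0.58 (SE 0.0843) lay just under the fold required (adjusted p = 1.80e-05, limma). With follicle library SA 0 left out it was 0.61 (SE 0.0806, adjusted p = 7.29e-06, limma) and was called. Mcm2 ran from 3.07 over 4.51 to 5.32 FPKM against 1.69 over 2.00 to 2.47, with no overlap and a log2 fold change of 0.80 (SE 0.12, adjusted p = 2.43e-05, limma). Gins2, a subunit of the GINS complex that joins the MCM ring to form the active helicase, ran from 10.8 over 14.2 to 17.2 FPKM against 6.08 over 6.55 to 8.33. Its log2 fold change was 0.90, the largest of the replication genes tested on the log2(FPKM + 1) scale, although its 1.99-fold ratio of means was below those of Mcm2 and Mcm3 (SE 0.12, adjusted p = 9.10e-06, limma). Mcm3, another ring subunit, ran from 1.46 over 2.63 to 3.33 FPKM against 0.62 over 1.10 to 1.71, with overlap and a log2 fold change of 0.68 (SE 0.17, adjusted p = 0.00234, limma).

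Not all subunits of the MCM ring differed in this way. Mcm7 ran from 9.97 over 12.7 to 16.2 FPKM in follicle SA and from 11.2 over 11.9 to 14.3 in striatum SA libraries, and its log2 fold change was 0.02 (95% confidence interval -0.24 to 0.27). Mcm4 ran from 1.03 over 1.53 to 3.46 against 1.52 over 1.80 to 1.99, with a log2 fold change of -0.04 (-0.39 to 0.31) that became positive when libraries were scaled to a common median or quantile normalized. Rrm2 was low but did not overlap, from 0.29 over 0.32 to 0.57 FPKM in the follicle and from 0 over 0.0869 to 0.14 in the striatum. Its means differed 4.66-fold, which the log2(FPKM + 1) scale compressed to 0.34 (SE 0.0521, adjusted p = 5.20e-05, limma without a minimum). The opposite direction was seen for Tyms, the thymidylate synthase, named after its values were seen as the only member without overlap that was lower in the follicle. It ran from 0.37 over 0.73 to 1.06 FPKM in the follicle and from 1.26 over 1.47 to 2.08 in the striatum, a log2 fold change of -0.57 (SE 0.13, adjusted p = 0.00120, limma) that was just under the fold required.

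On the log2(FPKM + 1) scale the largest tissue differences of the panel belonged to mitosis genes, although the means of Rrm2 differed 4.66-fold. Ube2c ran from 4.19 over 8.47 to 10.7 FPKM in follicle SA libraries and from 0.12 over 0.75 to 1.88 in striatum SA libraries. The means differed 9.25-fold, and the log2 fold change was 2.29 (SE 0.25). Ube2c averaged 0.87 FPKM in striatum SA libraries and passed the minimum through the follicle, and it was also called without a minimum. Cdk1, the kinase that drives entry into mitosis, ran from 4.36 over 7.72 to 8.68 FPKM against 0.41 over 0.82 to 2.04. Its means differed 6.63-fold, with a log2 fold change of 2.00 (SE 0.21, adjusted p = 5.67e-07, limma). Cdc20 ran from 2.89 over 5.35 to 6.64 against 0.88 over 1.27 to 2.21, a 3.49-fold difference of means (log2 fold change 1.31, SE 0.19, adjusted p = 2.20e-05, limma). In these genes every follicle SA library was above every striatum SA library.

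The cyclins B were also higher in the follicle by their means. Ccnb2 ran from 1.54 over 2.10 to 2.97 FPKM in follicle SA and from 0.32 over 0.52 to 0.84 in striatum SA libraries. Its means differed 3.80-fold, with a log2 fold change of 1.01 (SE 0.14). Ccnb2 averaged 0.57 FPKM in striatum SA libraries and passed the minimum through the follicle, and it was also called without a minimum. Ccnb1 ran from 1.20 over 2.22 to 2.76 against 0.77 over 0.97 to 1.5, with overlap. Its log2 fold change of 0.58 (SE 0.15, adjusted p = 0.00201, limma) was just under the fold required. With follicle library SA 0 left out it was 0.63 (SE 0.15, adjusted p = 0.00105, limma) and was called. The other 2 called mitosis genes, outside the rule for genes named here, were Birc5 (survivin, of the chromosomal passenger complex) at 3.51-fold and Nusap1, a spindle protein, at 3.43-fold.

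Some mitosis genes were as high in the striatum as in the follicle. Kif20a, a kinesin of the late spindle, ran from 0.81 over 1.3 to 2.75 FPKM in follicle SA and from 1.46 over 1.63 to 2.2 in striatum SA libraries, with a log2 fold change of -0.15 (95% confidence interval -0.49 to 0.18). Aurka ran from 1.35 over 1.53 to 2.50 against 2.01 over 2.11 to 2.49, and its log2 fold change was -0.26 (SE 0.11, under the fold required, adjusted p = 0.0413, limma). Both directions turned positive under quantile normalization and under scaling to a common median. With follicle library SA 0 left out, Kif20a was at -0.28 (SE 0.12, adjusted p = 0.0398, limma), also under the fold required. Aurka was then at -0.26 (SE 0.12, adjusted p = 0.0535, limma). For Mki67 the log2 fold change was 0.27 (SE 0.0970, adjusted p = 0.0221, limma without a minimum), and for Top2a it was -0.12 (SE 0.25, adjusted p = 0.677). The 22 mitosis members thus ran from a 9.25-fold higher mean in the follicle to a mean 0.77 times that of the striatum.

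In 12 of 36 members the SA groups of the 2 tissues did not overlap, 11 higher and 1 lower in the follicle, beside 58.4% of all rows without overlap and 23.3% higher without overlap. In MA libraries the numbers were 16 higher and 1 lower of 36, beside 62.5% and 25.3% of rows. In MA libraries 72.7% of 10953 rows were called, 31.3% as higher. Without a minimum level, 5 replication and 11 mitosis genes were called higher in the follicle and 1 (Tyms) lower, beside 25.0% of rows called higher and 60.4% called in either direction. Cdk1 and Ccnb1 averaged 0.75 and 0.86 FPKM in striatum MA libraries, so they pass a minimum of 1 FPKM through the follicle. In the fit without a minimum their log2 fold changes were 2.43 (SE 0.25) and 1.00 (SE 0.21), and both were called (adjusted p = 8.03e-07 and 0.000624, limma). It was 0.72 (SE 0.0946) for Pcna and 0.69 (SE 0.12) for Mcm2, and these were called as well (adjusted p = 4.66e-06 and 0.000108, limma). For Mki67, Top2a and Rrm2 it was 0.24, 0.30 and 0.35, with adjusted p of 0.00795, 0.105 and 1.69e-05 in limma without a minimum, none past the fold required. The tissue differences in SA and in MA rats come from different libraries, and whether they differ is the interaction tested below.

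**Figure D3:**
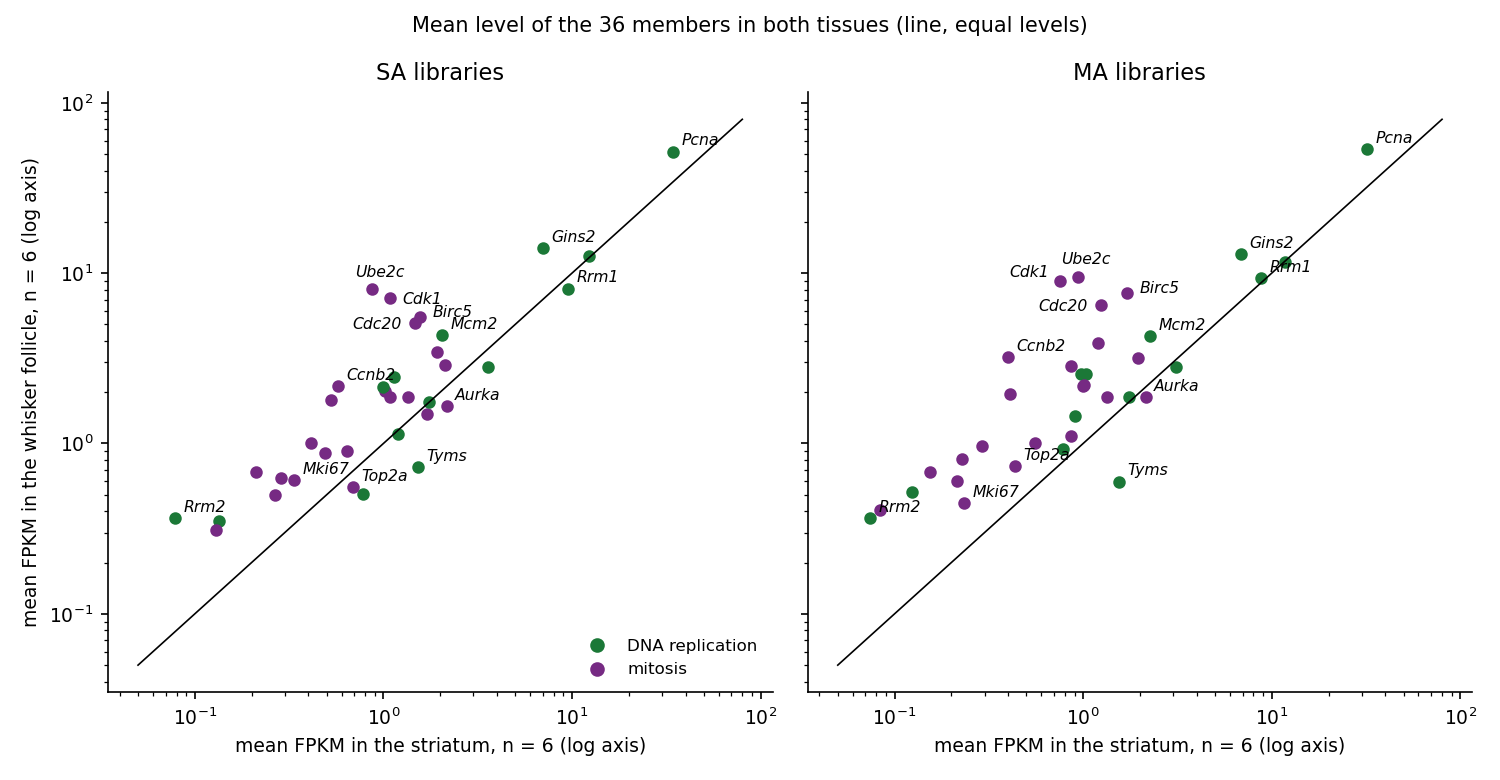
Mean FPKM of the 36 members in the follicle against the striatum, each over 6 libraries on log axes, for SA (left) and MA (right), with a line at equal levels. Ube2c and Cdk1 lie farthest above the line in both panels, and Tyms lies below it in both.

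Whether MA self-administration changed these genes was asked within each tissue. In the follicle, 0 of 9138 rows tested were called (0%) by limma, and 953 rows (10.4%) had an unadjusted p under 0.05. Of the members, 24 were tested, 0 were called and 0 had an unadjusted p under 0.05, the smallest adjusted p being 0.521. Without a minimum level 0 of 36 members were called, and 1, Cdt1 (a licensing factor of replication origins, named after its values were seen), had an unadjusted p of 0.0196 (adjusted p = 0.575, limma). In no member did the MA and SA libraries avoid overlap, beside 0.399% of rows. All 14 mitosis genes tested had a log2 fold change above 0, with a median of 0.17 and a range of 0.08 to 0.37, whereas 6 of 10 replication genes did, with a median of 0.05. The median of all rows was -0.01. Under quantile normalization 10 of 14 mitosis genes (median 0.0663) and 4 of 10 replication genes (median -0.0571) were above 0, and with weighted libraries the 14 mitosis genes had a median of 0.0876. The members were measured in the same libraries, so the count of directions is not a count of independent results.

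Among the replication genes named by the rule, Pcna, Mcm2, Mcm7 and Gins2 had the narrower intervals. Pcna ran from 46.3 over 53.3 to 63.4 FPKM in MA libraries, beside the SA values given above, with a log2 fold change of 0.04 (95% confidence interval -0.16 to 0.25, adjusted p = 0.826, limma). Mcm2 ran from 3.48 over 4.15 to 5.42 in MA libraries, with a log2 fold change of -0.02 (-0.32 to 0.28, adjusted p = 0.952, limma). Mcm7 ran from 10.2 over 11.0 to 14.6 (log2 fold change -0.10, -0.37 to 0.17) and Gins2 from 10.8 over 13.1 to 14.5 (-0.10, -0.35 to 0.15). The intervals of these 4 genes lie within the 1.5-fold change, on the log2(FPKM + 1) scale, that a call requires.

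Rrm1 and Mcm5 had estimates above 0. Rrm1, the large subunit of ribonucleotide reductase, ran from 6.42 over 7.99 to 10.2 FPKM in follicle SA and from 6.86 over 8.97 to 11.7 in follicle MA libraries, a log2 fold change of 0.18 (95% confidence interval -0.12 to 0.48, adjusted p = 0.529, limma). Mcm5 ran from 0.49 over 1.02 to 2.29 against 0.76 over 1.61 to 1.95, a log2 fold change of 0.21 (-0.23 to 0.65). For Mcm5 a 1.5-fold increase was not excluded, since the interval reaches beyond it. Rrm2 ran from 0.28 over 0.37 to 0.43 FPKM in MA libraries, with a log2 fold change of 0.00 (SE 0.0546, adjusted p = 0.997, limma without a minimum).

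Mitosis genes spread more widely in the follicle. Ccnb1 ran from 0.98 over 2.87 to 4.39 FPKM in MA libraries, with a log2 fold change of 0.30 (95% confidence interval -0.18 to 0.78, adjusted p = 0.522, limma). Ccnb2 ran from 1.31 over 3.43 to 5.60 in MA libraries and had a log2 fold change of 0.34 (-0.20 to 0.87, adjusted p = 0.521, limma). Cdk1 ran from 3.97 over 8.33 to 15.7 FPKM, both below and above all SA libraries, with a log2 fold change of 0.21 (-0.33 to 0.75, adjusted p = 0.676, limma). Cdc20 followed the same pattern at its top, from 3.24 over 6.56 to 9.64 (log2 fold change 0.28, -0.18 to 0.74). Kif20a ran from 1.11 over 1.96 to 2.39 FPKM in MA libraries and had a log2 fold change of 0.23 (-0.17 to 0.62). Mki67 went the other way, with a log2 fold change of -0.15 (SE 0.0792, adjusted p = 0.585), and Top2a had 0.22 (SE 0.20, adjusted p = 0.689, limma without a minimum). For most of these genes the interval reaches past a 1.5-fold increase.

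Without follicle library SA 0, 13.5% of 9059 rows were called and 39.8% had an unadjusted p under 0.05, but still 0 of 24 members were called. The 1 member with an unadjusted p under 0.05 was then Kif20a, with a log2 fold change of 0.35 (SE 0.15, adjusted p = 0.109, limma). All 14 mitosis genes stayed above 0, with a median of 0.20. Weighting the libraries by their quality, which called 12.7% of rows, also called 0 members. Library SA 0 held the highest of the 12 follicle values for 7 mitosis genes, among them Mki67 (0.93 FPKM), Top2a (1.76) and Kif20a (2.75), and for Mcm4 (3.46) and Mcm5 (2.29), and the lowest for Mcm7 (9.97) and for Birc5. It also held the highest summed FPKM of 10 hair matrix markers, 1226 against 376 to 1061 in the other 11 libraries, and the part of that in the members' values was not tested.

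In the striatum, 1 of 10607 rows was called (0.00943%) and 876 rows (8.26%) had an unadjusted p under 0.05. Of 18 members tested, 0 were called by limma and 0 had an unadjusted p under 0.05. Without a minimum level 0 of 36 were called, beside 0.00696% of rows. Kif20a alone then had an unadjusted p under 0.05, with an adjusted p of 0.651 in limma. No member's groups avoided overlap, beside 0.306% of rows. Here most log2 fold changes were below 0, in 8 of 10 replication genes (median -0.06) and 7 of 8 mitosis genes (median -0.12), and in 29 of all 36 members without a minimum. The median of all rows was 0.00. Without library MA 3, 7 of 11 replication and 4 of 8 mitosis genes were below 0, with medians of -0.03 and 0.00. That library was singled out by its low values of these members. Leaving it out therefore had to raise MA against SA, and no conclusion is drawn from the change.

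Kif20a was the member with the smallest p in the striatum. It ran from 1.46 over 1.63 to 2.2 FPKM in SA and from 1.01 over 1.36 to 1.61 in MA libraries, a log2 fold change of -0.21 (95% confidence interval -0.43 to 0.00, adjusted p = 0.603, limma). Plk1, a kinase of mitotic entry and exit, ran from 0.77 over 1.37 to 2.12 against 0.62 over 0.92 to 1.57, with a log2 fold change of -0.23 (-0.56 to 0.10). Aurkb, the kinase of the chromosomal passenger complex, had the widest spread, from 0.39 over 1.41 to 5.66 against 0.27 over 0.66 to 4.17 (log2 fold change -0.39, -1.23 to 0.44). Cdc20 ran from 0.48 over 1.20 to 1.88 in MA libraries (log2 fold change -0.13, -0.54 to 0.27). None of these groups separated.

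Replication genes overlapped between the groups as well. Pcna ran from 27.3 over 32.2 to 36.7 FPKM in MA libraries, with a log2 fold change of -0.09 (95% confidence interval -0.26 to 0.08, adjusted p = 0.759, limma). Rrm1 ran from 9.01 over 9.60 to 10.2 in SA and from 7.95 over 8.37 to 9.96 in MA libraries (-0.11, -0.27 to 0.05). Mcm2 ran from 1.83 over 2.15 to 2.84 in MA libraries (0.10, -0.12 to 0.31). Mcm5 ran from 0.85 over 1.11 to 1.60 against 0.44 over 0.95 to 1.38 (-0.21, -0.51 to 0.09), and Mcm6 from 2.81 over 3.55 to 4.50 against 2.34 over 3.14 to 4.01 (-0.17, -0.44 to 0.10). These intervals exclude a 1.5-fold change in either direction only on the log2(FPKM + 1) scale, which shrinks the folds of low genes. For Mcm5 and Mcm6, with means of 1.19 and 3.59 FPKM in SA libraries, a 1.5-fold fall in FPKM itself is not excluded. With weighted libraries the interval of Mcm6 reached past a 1.5-fold fall on that scale too (-0.35, -0.60 to -0.10, adjusted p = 0.227, limma). That fit called 0 of 18 members. In it 2 members, Mcm6 and Plk1, had an unadjusted p under 0.05 in limma, beside 1389 of 10607 rows. Members under 1 FPKM were tested without a minimum, and the log2 fold change was -0.12 (SE 0.12) for Ccnb1, -0.22 (SE 0.20) for Cdk1, -0.11 (SE 0.0918) for Mki67, -0.20 (SE 0.23) for Top2a and -0.01 (SE 0.0471) for Rrm2. Their adjusted p lay between 0.798 and 0.981 in limma.

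**Figure D4:**
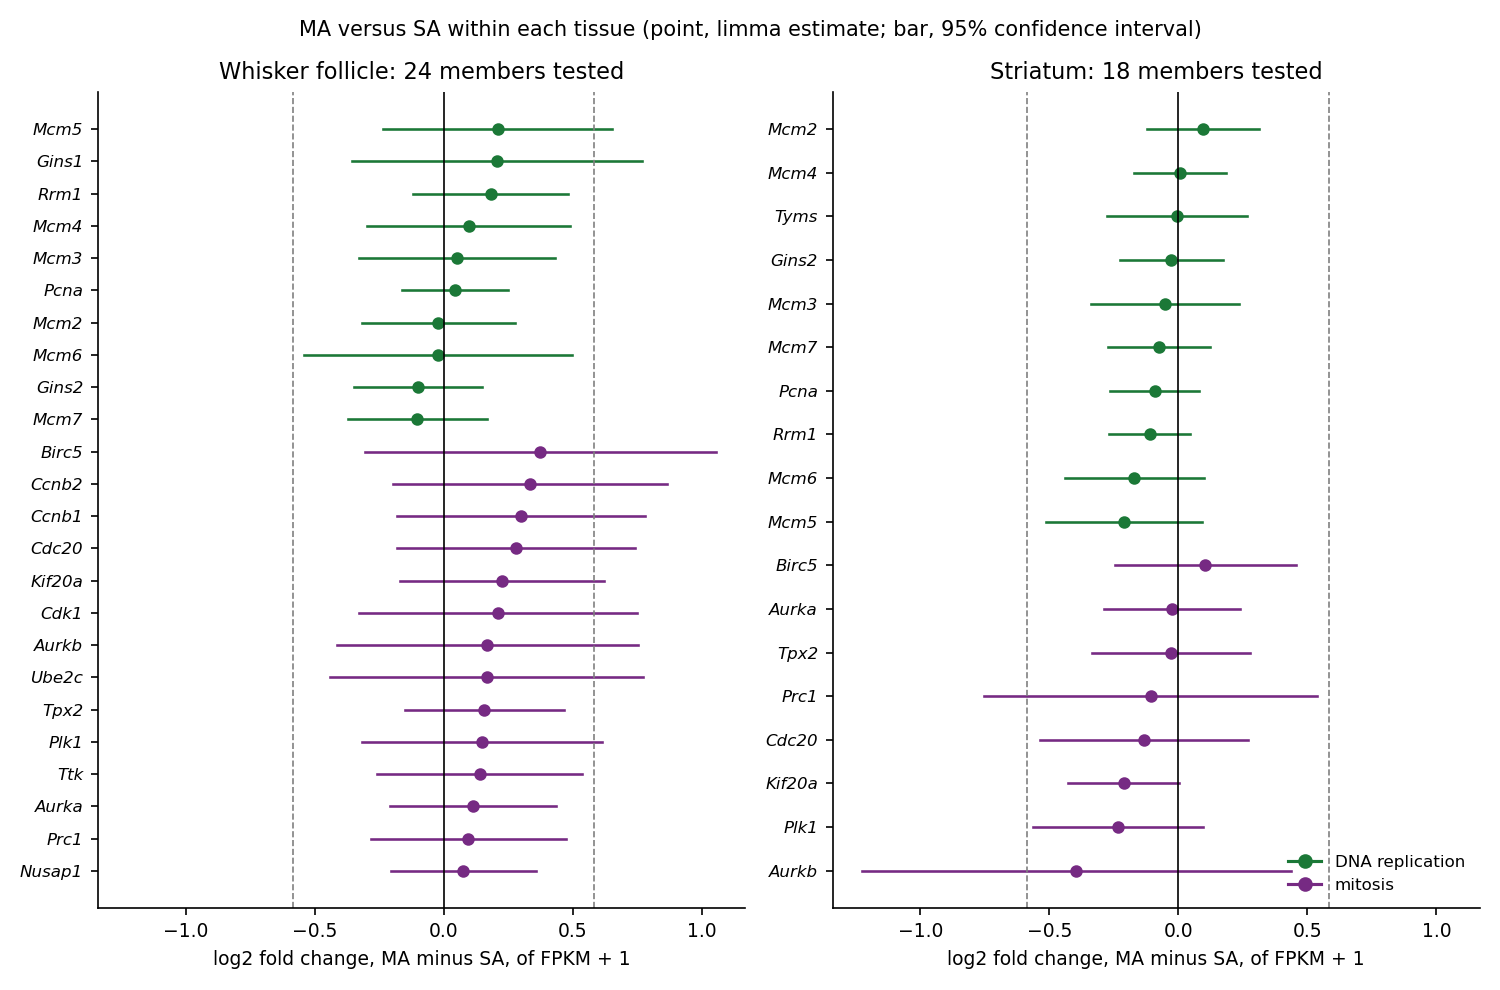
Log2 fold change of MA over SA on the log2(FPKM + 1) scale, with 95% confidence intervals from limma, for the 24 members tested in the follicle and the 18 tested in the striatum. Dashed lines mark a 1.5-fold change. All 14 mitosis genes lie above 0 in the follicle and 7 of 8 below 0 in the striatum, and every interval includes 0.

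The difference between the MA effects of the 2 tissues was tested as an interaction over all 24 libraries. Of 10985 rows 0.00910% were called, and 0 of 24 members. All 13 mitosis genes tested had a positive difference, with a median of 0.38, beside 7 of 11 replication genes with a median of 0.10. For mitosis genes, 12 of 13 were positive without follicle library SA 0 (median 0.37) and with weighted libraries (0.22), 13 of 13 under quantile normalization (0.21) and 20 of 22 without a minimum (0.20). The smallest p was that of Kif20a, with a difference of 0.44 (SE 0.20, adjusted p = 0.433, limma). Without follicle library SA 0 its difference was 0.56 (SE 0.17, adjusted p = 0.0315, limma), just under the fold required, while 11.3% of all rows were called and 30.3% had an unadjusted p under 0.05. For Ccnb1 the difference was 0.42 (SE 0.26), for Cdk1 0.43 (SE 0.33), for Pcna 0.13 (SE 0.12) and for Mcm2 -0.12 (SE 0.17), with adjusted p between 0.505 and 0.775 in limma. For Mki67, Top2a and Rrm2 it was -0.03, 0.41 and 0.01 without a minimum, a fit that called 0.0204% of rows and 0 of 36 members. With all libraries, an interaction was not detected for any member.

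The members also varied between the libraries of a group. Each member was ranked over the 12 libraries of its tissue, from 1 for the lowest, and the ranks were averaged over genes. In the follicle, the mean rank of mitosis genes ran from 2.27 in library SA 1 to 7.91 in SA 0, and from 2.59 in MA 2 to 9.77 in MA 4. Libraries SA 1 and MA 2 each held the lowest value of 7 mitosis genes, and their mean ranks for replication genes were 3.29 and 5.07. The summed FPKM of the 22 mitosis genes was 33.8 and 31.2 in these libraries and between 49.0 and 87.5 in the other 10. Hair matrix markers summed to 778 and 613 in SA 1 and MA 2, inside the range of the other libraries, and their part was not tested.

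In the striatum, libraries SA 5 and SA 1 had the highest mean ranks of mitosis genes (10.5 and 10.3), and SA 5 held the highest value of 11 of them. Library MA 3 had the lowest, 2.00, and held the lowest value of 12 mitosis and 6 replication genes. Its summed mitosis level was 9.89 FPKM, against 14.3 to 28.7 in the other 11. The same library had summed fibroblast and matrix markers of 109.7 FPKM, against 29.1 to 55.0 in the others, and summed erythrocyte markers of 5376, against at most 1736 in the other MA libraries. The part of these in the members' low values was not tested. Replication genes summed to 61.1 FPKM in MA 3 and to between 68.6 and 79.4 in the other libraries.

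**Figure D5:**
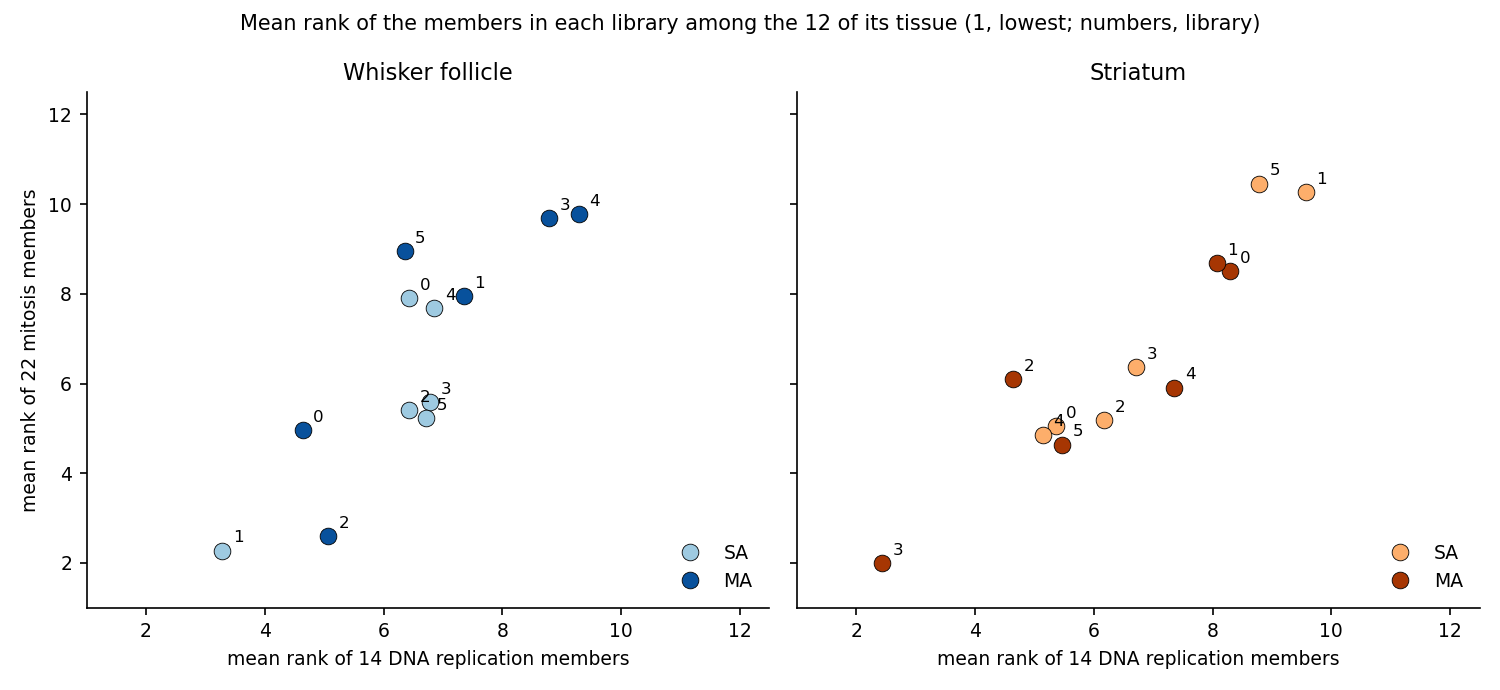
Mean rank of the 22 mitosis members against that of the 14 replication members in each library, among the 12 libraries of its tissue, with follicle on the left and striatum on the right and libraries numbered 0 to 5 within each group. Libraries SA 1 and MA 2 were lowest for mitosis genes in the follicle and MA 3 was lowest for both kinds in the striatum, and the SA and MA points overlap in both tissues.

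Other genes of the cell cycle, taken from 5 lists of 109 genes of which 96 had a row, were tested in the same fits. For MA against SA, 0 of 72 genes tested in the follicle and 0 of 66 in the striatum were called by limma, with 6 at an unadjusted p under 0.05 in each tissue, beside 10.4% and 8.26% of all rows. The genes named next are those with small p in lists whose counts are near that background. Among G1 cyclins, Ccnd1 (cyclin D1) had the smallest p in the follicle, with means of 11.9 FPKM in MA and 17.2 in SA libraries (log2 fold change -0.47, SE 0.14, adjusted p = 0.465, limma). In the striatum it was Ccnd3, with 23.3 against 18.4 (0.31, SE 0.0936, adjusted p = 0.577, limma). Of the replisome genes, Rfc5, a subunit of the clamp loader, had 8.53 against 6.08 FPKM in the follicle (0.44, SE 0.15), and Orc4, of the origin recognition complex, 6.20 against 8.01 in the striatum (-0.33, SE 0.12). Of the RB and DREAM genes, which hold cell cycle promoters silent in resting cells, Rbl2 had 4.28 against 5.51 FPKM in the follicle (-0.29, SE 0.11). Of the genes of the spindle checkpoint and the anaphase-promoting complex, Fzr1 had 23.8 against 16.5 FPKM in the follicle (0.62, SE 0.27, adjusted p = 0.465, limma) and Cdc23 9.25 against 10.6 in the striatum (-0.18, SE 0.0788). Without follicle library SA 0, 2 of the 72 genes were called higher and 2 lower in MA, namely Fzr1, Rfc4, Rpa1 and Rpa3, in a fit that called 13.5% of all rows.

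Between the tissues in SA libraries, 28 of these genes were called higher and 12 lower in the follicle of 74 tested, beside 32.0% of all rows called higher and 42.5% lower. Of the 74, 13 averaged under 1 FPKM in 1 tissue and passed the minimum through the other, and 12 of those were called, so the counts are a description. The CDK inhibitors, which stop the cycle, included 4 of 6 called higher, of which 3 had passed through the follicle. Cdkn2b averaged 86.6 FPKM in the follicle and 0.27 in the striatum, a level at which only the follicle carried it past the minimum. Cdkn1a averaged 287 against 4.66 FPKM (log2 fold change 5.69, SE 0.17). Among the G1 kinases Cdk4, the partner of the D cyclins, averaged 156 against 41.2 FPKM (1.89, SE 0.11). Genes of S phase and mitosis lay on both sides, with Dlgap5, a spindle protein, at 4.45 against 0.50 FPKM, Cdc7, the kinase that fires replication origins, at 0.33 against 1.99, each under 1 FPKM in 1 tissue, and Wee1, the kinase that holds Cdk1 inactive, at 2.81 against 10.4 (-1.58, SE 0.13). The spindle list had 8 genes called higher and 6 lower, and the replisome list 9 and 5, with calls in both directions in each.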

How the data were processed

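Polyadenylated RNA of striatum and whisker follicle was sequenced as read pairs. The authors deposited FPKM values, 1 row per gene or group of overlapping genes. The study's methods name Cutadapt, TopHat2 and Cufflinks with the rat build rn6, whereas the submitters' processing notes name STAR 2.6.0c and Cufflinks 2.2.1. The gene annotation is not given in the sources used here. The deposited FPKM values carry no read counts, so depth is unknown and no count model was used.

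Groups came from the sample labels, and columns are numbered 0 to 5 within a group with no link to a rat. The highest correlation between libraries was 0.991, and no library was a copy of another. Values were tested as log2(FPKM + 1) with limma 3.58.1 in R 4.3.3 (moderated test with a mean-variance trend, two-sided), on rows with a mean of at least 1 FPKM over the libraries fitted. P-values were adjusted by the Benjamini-Hochberg method over all rows tested. Calls required an adjusted p below 0.05 together with a 1.5-fold difference. Because 1 is added to each value, differences of genes with low FPKM come out smaller on the log2 scale than in FPKM. Each treatment comparison and each tissue comparison was fitted on its own 12 libraries, and the interaction on all 24. The scripts were tested on simulated data. Alternatives were pseudocounts of 0.1 and 0.5, no minimum, a minimum of 5 FPKM, quantile normalization, a common median, no trend, library weights and leaving out each library.

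Members and lists were chosen with earlier results of these data known. Mki67, Top2a, Ccnb1, Cdk1, Pcna, Mcm2 and Rrm2 were named in every comparison. Between treatments the 4 replication and 4 mitosis members with the smallest p were added, and between tissues in SA libraries the 3 of each kind with the largest and the 2 with the smallest log2 fold change. Of each further list up to 2 genes with the smallest p were named. Any other gene named was chosen after its values were seen. Promoters came from RefSeq (GRCr8) and were matched by symbol. Cuffdiff was not used because it needs the reads.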

Additional observations from a re-analysis of the deposited data

Results flagged for a closer look

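Among 84 groups of 6 libraries (21 named members in 4 groups), 5 held a library whose distance to the nearest other, as a share of the group's range, passed the 95% limit of Dixon's test. Chance alone flags about 4.2 of 84. Follicle library SA 0 held 2 of these values, Top2a at 1.76 FPKM with the next library at 0.47, and Mcm4 at 3.46 FPKM with the next at 1.73. Follicle library SA 4 held Aurka at 2.50 FPKM, with the next at 1.67. Aurkb was high in 1 striatum library of each treatment, at 5.66 FPKM in SA 4 with the next at 1.80, and at 4.17 FPKM in MA 0 with the next at 0.99. Without SA 4 the log2 fold change of Aurkb between MA and SA in the striatum was -0.12, and without MA 0 it was -0.68, and it was called in neither.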

How the results depend on the processing

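The counts of members called between MA and SA were 0 for both kinds of gene, in both tissues and in the interaction, under every alternative that tested members of that kind and without each library in turn. At a minimum of 5 FPKM no mitosis gene was left to test in the striatum or in the interaction, so the 0 there carries no information. Counts over all rows were less stable. In the follicle 1160 rows were called with weighted libraries, and between 0 and 1219 with each library left out, the highest without library SA 0. In the striatum 0 rows were called at a minimum of 5 FPKM and between 0 and 4 with each library left out, the highest without MA 5. For the interaction the count over all rows was 2 with a pseudocount of 0.1, 3 with no minimum, 0 at a minimum of 5 FPKM, 1389 with weighted libraries and 1 to 1240 with each library left out, the highest without follicle SA 0. Between tissues, a minimum of 5 FPKM left 4 replication genes and 0 mitosis genes to test in SA libraries, so that 1 and 0 were called, and 4 and 1 in MA libraries, of which 2 and 1 were called. In SA libraries 13 of 13 mitosis and 6 of 11 replication genes were called under quantile normalization, all higher in the follicle. With a common median 10 of 13 and 5 of 11 were called, also all higher. The median log2 fold change of all rows in these fits was 0.0958 and 0.15. The shares of all rows called in them are not given here, so these counts are a description. The log2 fold change between tissues in SA libraries turned positive for Mcm4 (0.99 under quantile normalization, 0.25 with a common median), Aurka (0.76 and 0.0399) and Kif20a (0.88 and 0.12), and the cause was not tested. With each library left out it ran from -0.19 to 0.0381 for Mcm4 and from -0.0509 to 0.0796 for Mcm7. That of Ccnb1 (0.51 to 0.67) and of Pcna (0.56 to 0.62) passed the fold required in 5 of 12 such fits each. Between MA and SA in the follicle it ran from -0.00574 to 0.0835 for Pcna and from -0.0950 to 0.0319 for Mcm2. No paired analysis was possible because the columns carry no rat number that links a striatum library to a follicle library. The tissue comparisons and the interaction therefore treat the tissues as separate samples, although they came from the same rats. At the low FPKM of most members, the spread of 6 libraries limits what can be seen.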

Other observations

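Marker lists for cell types that can divide in the adult brain were summed, and in the striatum the sums overlapped between treatments. The summed FPKM of 6 markers of oligodendrocyte precursors ran from 160 over a median of 200 to 263 in SA and from 151 over 215 to 269 in MA libraries, against at most 2.88 in the follicle. The summed FPKM of 7 neuroblast markers ran from 404 over 481 to 677 in striatum SA and from 349 over 423 to 512 in striatum MA libraries. Follicle libraries summed to similar values for that list, from 372 to 626, with Dcx, a defining marker, listed at 0 in all of them. The sum of that list therefore does not by itself show that neuroblasts were present.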
